A study of Lepidium sativum with 107 samples.

Results

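Sulfate transporters of the SULTR family were followed through seed germination in garden cress (Lepidium sativum). The transcripts were taken from a list of 8 Arabidopsis loci, of which 3 were measured among the 13895 probe sets of the array table, namely SULTR1;2 (AT1G78000), SULTR4;1 (AT5G13550) and SULTR3;5 (AT5G19600). SULTR1;1, SULTR2;1, SULTR3;1, SULTR3;4 and SULTR4;2 are not analysed here. SULTR1;2 was chosen by its measured levels at endosperm rupture, so its values at that step are given as a description with no test. The probe sets are keyed by Arabidopsis locus, and a value describes the cress transcript that bound the probes filed under that locus.

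Seeds of the accession FR14 were imbibed in water at 24 °C in continuous light and cut into 4 tissues, with no other treatment. The micropylar endosperm, the cap of cells over the radicle tip, and the radicle with the lower hypocotyl were collected at 1 h, 3 h, 5 h, 7 h, 10 h, 13 h and 16 h. The 7 h seeds were split into those with an intact and those with a ruptured testa, and the 16 h seeds into those with an intact and those with a ruptured endosperm. The rest of the endosperm and the cotyledons were collected at 3 h, at 7 h with intact testa and at 13 h, and dry seeds were used whole, as the part with radicle and micropylar endosperm, and as the part with the remaining endosperm and some of the cotyledons. This gave 27 groups of 4 arrays, or 3 for the last dry part, each array holding RNA of 100 pooled organs (50 for cotyledons).

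SULTR proteins carry sulfate across membranes together with protons. In Arabidopsis, SULTR1;2 is the main high-affinity importer of sulfate at the root surface, SULTR4;1 releases stored sulfate from the vacuole, and SULTR3;5 assists sulfate transport within root vascular tissue. Imported sulfate is activated by ATP sulfurylases (APS1 to APS4), reduced by APS reductases (APR1 to APR3) and sulfite reductase (SIR), and built into cysteine, from which methionine and glutathione are made.

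Array medians lay between 4.04 and 4.17 on the log2 scale. Group means below a brightness limit of 3.59, set at percentile 25 of the group means in the table, were treated as bounds, and changes that started from them are written as at least. The endosperm marker EPR1 averaged 2.26 ± 0.07 log2 units more in micropylar endosperm than in radicle (standard error, adjusted p = 6.53e-45, limma), and the root marker PIN2 differed the other way (-1.69 ± 0.09, adjusted p = 6.93e-29). PIN2 had the largest difference of the 7 measured root and root cap markers. PLT1, PLT2, SHR and SCR were also lower in micropylar endosperm and passed. BRN2 did not pass (-0.08, adjusted p = 0.189), and SMB was higher there (0.29, adjusted p = 2.02e-07). In bulk tissue, fewer cells of a type and less RNA per cell cannot be told apart.

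In the order of SULTR1;2 levels 1 group stood far above all others. The mean log2 level was 8.03 ± 0.18 (SD, n = 4) in micropylar endosperm with ruptured endosperm at 16 h, 5.83 ± 0.37 in the radicle of the same seeds, and 5.81 ± 1.76 in micropylar endosperm at 13 h. All the other 24 groups had means between 3.57 and 4.45, where neighbours in the order differed by less than their spread. The group means spanned 4.46 log2 units, with the top of that span set by the step the gene was chosen for.

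In micropylar endosperm at 16 h the levels of this importer were 4.24, 4.38, 4.64 and 4.53 in seeds with intact endosperm. They were 7.94, 7.82, 8.15 and 8.20 in seeds of the same age whose endosperm had ruptured. The groups did not overlap, and the ruptured mean stood 3.58 log2 units higher, a 12.0-fold difference. Because the gene was chosen for this step, no test is attached, and the share of probe sets that passed in either direction here (4.3%) is printed as background only.

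The radicle showed the same order at a smaller size. There the importer read 4.21, 4.61, 4.16 and 4.34 with the endosperm intact and 6.08, 5.29, 6.05 and 5.90 with it ruptured, again without overlap. The difference was 1.50 log2 units, 2.83-fold, and 5.44% of all probe sets passed in this comparison. Among ruptured seeds the micropylar endosperm exceeded the radicle by 2.20 log2 units with no overlap, whereas among intact 16 h seeds the means of the 2 tissues were 4.45 and 4.33.

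Markers of neighbouring tissues were read beside that difference. The summed log2 level of 9 cotyledon and shoot markers in micropylar endosperm was 32.1 to 33.7 in intact and 35.0 to 36.6 in ruptured seeds at 16 h. Of the 9, 1 passed, where 4.3% of all probe sets passed. This was the leaf-shape regulator TCP10, whose mean went from 4.17 to 6.53 (log2 change 2.36). The others changed by -0.23 (KAN2) to 0.29 (FIL), so the higher sum was mostly that of TCP10. Of the 9, 4 or 5 were under the brightness limit in these groups. The part of these markers in the SULTR1;2 difference was not tested. The importer had group means of 3.70 to 3.79 in cotyledons from 3 h to 13 h, and cotyledons were not sampled at 16 h. The sum of 7 root and root cap markers ran from 26.0 to 29.2 in intact and from 25.2 to 28.6 in ruptured seeds, and EPR1 from 4.72 to 5.31 and from 4.67 to 5.16. For the 2 measured seed coat markers the sum ran from 9.69 to 10.7 in intact and from 10.1 to 11.1 in ruptured seeds.

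**Figure D1:**
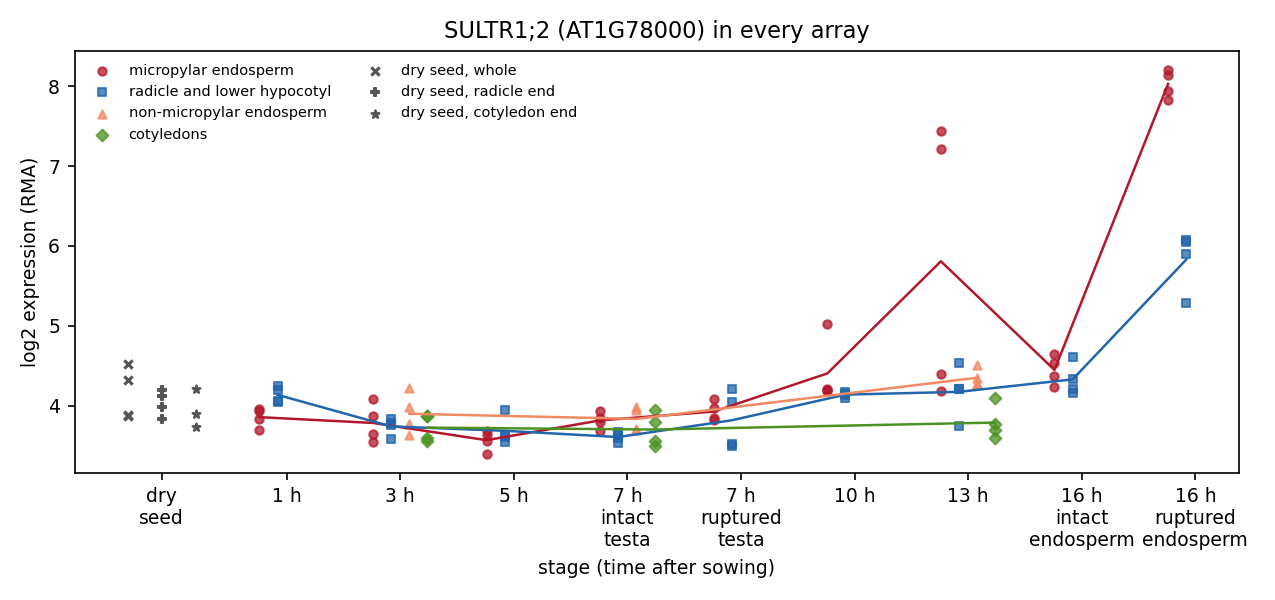
SULTR1;2 log2 expression (vertical axis) in each array by stage (horizontal axis), with 1 symbol per tissue and lines through the group means. The ruptured 16 h micropylar endosperm lies between 7.82 and 8.20, the ruptured radicle between 5.29 and 6.08, and 2 of the 4 arrays of micropylar endosperm at 13 h are also high, at 7.21 and 7.44.

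At 13 h the replicates of micropylar endosperm stood apart from one another. Their levels of the importer were 4.39, 4.19, 7.44 and 7.21, so that replicates 1 and 2 resembled the intact 16 h seeds and replicates 3 and 4 approached the ruptured ones. The SD of 1.76 was the largest of all 13895 probe sets in that group. SULTR3;5 did not share this spread, with 4.52, 4.60, 4.53 and 4.31 in the same arrays (SD 0.13), whereas SULTR4;1 read 5.40, 4.85, 6.07 and 6.26 (SD 0.65).

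Other transcripts of the rupture step were read in the same arrays. Over the 463 other probe sets that rose in micropylar endosperm at endosperm rupture, the median log2 difference from the intact 16 h mean was 0.25, -0.11, -0.10 and -0.01 in the 13 h replicates 1 to 4. In the ruptured 16 h arrays, which helped to choose those probe sets, it was 0.55 to 1.16. Replicates 3 and 4, which held the high levels of the importer, lay below replicate 1 in this median. The labels do not sort 13 h seeds by rupture, and what set the 2 arrays apart was not tested. Each 13 h array correlated with the others of its group at a mean r of 0.962 to 0.971 over all probe sets. Pair by pair, r was highest between replicates 3 and 4 (0.978) and lowest between replicates 1 and 2 (0.958).

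**Figure D2:**
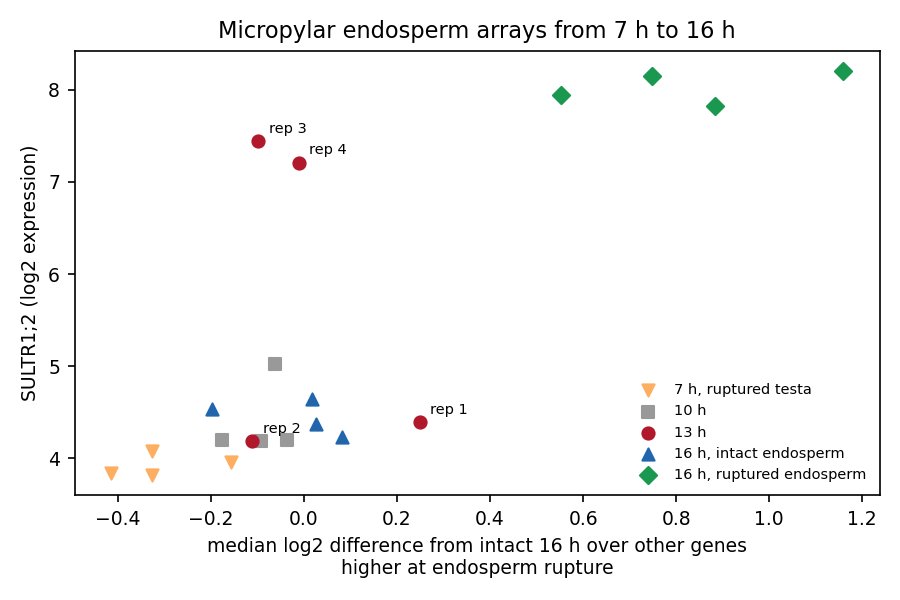
Micropylar endosperm arrays from 7 h (ruptured testa) to 16 h, with SULTR1;2 log2 expression on the vertical axis and, on the horizontal axis, the median log2 difference from intact 16 h seeds over 463 other transcripts higher at endosperm rupture. The 13 h replicates 3 and 4 are high on the vertical axis at horizontal positions of -0.10 and -0.01, left of all ruptured arrays (0.55 to 1.16), which enter the choice of the 463 transcripts.

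The tests of SULTR1;2 away from the rupture step depended on those 2 arrays. The 10 h levels were 5.02, 4.19, 4.20 and 4.20. From 10 h to 13 h the mean rose by 1.40 ± 0.28 log2 units (limma, adjusted p = 0.00119), where 0.849% of all probe sets passed. Without replicates 3 and 4 of the 13 h group this change turned to -0.11 and did not pass (adjusted p = 0.999). From 13 h to intact seeds at 16 h the mean fell by 1.36, a change that turned to 0.16 without those replicates. No test is attached to this fall, since the intact 16 h arrays entered the choice of the gene. At that step 1.4% of all probe sets passed. The excess of micropylar endosperm over radicle at 13 h was 1.63 (adjusted p = 1.07e-06) with all arrays, where 27.7% of all probe sets passed, and 0.12 (adjusted p = 0.775) without those 2. Against the rest of the endosperm at 13 h, where the importer read 4.27, 4.35, 4.51 and 4.27, the difference of 1.46 (adjusted p = 4.74e-05, 11.1% of all probe sets passing) became -0.06 (adjusted p = 0.939).

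Earlier in germination SULTR1;2 was low and changed little. Its levels in micropylar endosperm were 3.69, 3.84, 3.94 and 3.95 at 1 h and 3.85, 3.93, 3.68 and 3.80 at 7 h with intact testa, overlapping throughout. In the radicle they were 4.05, 4.25, 4.04 and 4.20 at 1 h and 3.63, 3.54, 3.59 and 3.68 at 7 h, without overlap. The radicle change of -0.53 ± 0.28 did not pass with all arrays (adjusted p = 0.123), and it passed without the 2 arrays at 13 h, which lowered the spread estimated for this gene (adjusted p = 0.00368).

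From 7 h seeds with ruptured testa to intact 16 h seeds, the importer was higher by 0.52 in micropylar endosperm and by 0.51 in the radicle. Neither difference is given with a test, since the intact 16 h arrays entered the choice of the gene. In the rest of the endosperm the level was 3.98, 3.77, 3.63 and 4.22 at 3 h, and the later 13 h values lay above all of these. That difference, 0.45, passed only without the 2 arrays of micropylar endosperm at 13 h (limma, adjusted p = 0.202 against 0.0132). Leaving them out lowered the estimated spread and did not alter the change. In cotyledons the change from 3 h to 13 h was 0.06 (95% interval -0.49 to 0.61).

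Across the main steps at most 1 of the 3 transcripts passed in any tissue. At testa rupture 0 of 3 passed in micropylar endosperm and in radicle (limma, unadjusted p under 0.05 for 0 in both), where 6.33% and 1.71% of all probe sets passed. Before testa rupture, from 1 h to 7 h with intact testa, 1 of 3 passed in micropylar endosperm and 0 in radicle (0 also at an unadjusted p under 0.05), against 38.2% and 39.5% of all probe sets. Between the ruptures 1 passed in micropylar endosperm and 0 in radicle (15.9% and 11.9%, with 1 in each at an unadjusted p under 0.05), and from 3 h to 13 h 1 passed in the rest of the endosperm (39.3%) and 1 in cotyledons (25.4%). The transcript that passed was in each of these cases that of the vacuolar exporter, which rose. The counts between the ruptures include SULTR1;2, although the intact 16 h arrays entered its choice.

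SULTR4;1, the vacuolar exporter, rose through germination in both endosperm parts and in cotyledons, and stayed low in the radicle. Its highest group mean was 5.64 ± 0.65 (SD, n = 4) in micropylar endosperm at 13 h, followed there by 5.46 ± 0.47 in ruptured and 4.92 ± 0.25 in intact seeds at 16 h. Cotyledons and the rest of the endosperm at 13 h came next, at 4.81 ± 0.59 and 4.78 ± 0.24. The 9 radicle groups had means between 3.70 and 4.20, and dry seeds between 3.44 and 3.81, so neighbours within these sets did not differ beyond their spread.

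In micropylar endosperm the levels of the exporter were 3.74, 3.57, 3.42 and 3.38 at 1 h and 4.19, 4.13, 4.35 and 3.70 at 7 h with intact testa. The change of at least 0.57 ± 0.22 log2 units passed (limma, adjusted p = 0.0364), although replicate 4 at 7 h lay within the 1 h range. It lost its call in 6 of the 8 fits that left out 1 array, with changes of 0.48 to 0.70. From ruptured testa at 7 h (3.97, 4.04, 3.84 and 4.57) to intact endosperm at 16 h (4.68, 5.25, 4.99 and 4.76) the levels did not overlap, and the rise of 0.81 ± 0.22 passed (adjusted p = 0.00545) and held in all 8 such fits.

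At endosperm rupture neither the exporter nor SULTR3;5 passed in either tissue, with 1 of 2 in micropylar endosperm, the exporter, and 0 of 2 in radicle at an unadjusted p under 0.05. The ruptured micropylar endosperm read 5.11, 5.39, 5.19 and 6.14, overlapping the intact seeds of the same age, with a difference of 0.54 ± 0.22 (adjusted p = 0.214). In radicle it was 0.09 (95% interval -0.36 to 0.53).

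The exporter stood clearly higher in micropylar endosperm than in radicle at 13 h and 16 h. The difference was 1.78 at 13 h (adjusted p = 2.88e-10), 0.81 in intact seeds at 16 h (0.00299) and 1.26 in ruptured seeds (1.71e-06), all from limma and all passing in each of 8 fits without 1 array. At 10 h it was 0.60 with overlapping groups (adjusted p = 0.0367), and this call held in 2 of 8 such fits, with 0.39 (adjusted p = 0.261) without micropylar endosperm replicate 3. From 1 h to 7 h with ruptured testa the measured differences ran from -0.31 to 0.22 and did not pass, the 1 h one resting on a level under the brightness limit. At 10 h, 13 h and the intact and ruptured 16 h stages 26.7%, 27.7%, 28% and 36.1% of all probe sets passed. At 13 h the radicle arrays read 4.00, 3.78, 3.95 and 3.74, below all 4 arrays of the micropylar endosperm, and the difference was 1.25 (adjusted p = 8.02e-05) without replicates 3 and 4 of the latter.

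Counted from 1 h, the courses of the exporter differed between the tissues in a direct test. From 1 h to 13 h the level rose by at least 2.12 in micropylar endosperm and changed by 0.03 in radicle, and the difference of the changes was at least 2.09 ± 0.32 (adjusted p = 2.47e-07, or at least 1.57 and 0.000315 without the 2 arrays at 13 h, with 18.7% of all probe sets passing). With intact seeds at 16 h as the end point, the difference was at least 1.12 ± 0.32 (adjusted p = 0.00725). Over shorter intervals the difference of the changes did not pass, with 0.59 ± 0.32 from ruptured testa at 7 h to intact endosperm at 16 h (adjusted p = 0.299) and 1.18 from 10 h to 13 h (adjusted p = 0.0964). The single step from 10 h (4.83, 4.87, 5.38 and 3.92) to 13 h in micropylar endosperm, 0.89 with overlapping groups (adjusted p = 0.0235), fell to 0.37 without the 2 arrays (adjusted p = 0.888).

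In the rest of the endosperm the exporter read 3.42, 3.34, 3.66 and 3.28 at 3 h, 4.04, 4.48, 4.20 and 4.39 at 7 h, and 5.01, 4.77, 4.46 and 4.88 at 13 h. The 3 h values lay below all later ones, and the rise over the whole interval was at least 1.36 ± 0.22 log2 units (adjusted p = 2.76e-07). Cotyledons read 3.69, 2.94, 3.74 and 3.02 at 3 h, 3.73, 3.50, 3.33 and 4.03 at 7 h, and 5.31, 4.06, 5.24 and 4.63 at 13 h. There the first interval showed overlap and no pass (at least 0.30, adjusted p = 0.449), and the second a rise of 1.16 without overlap (adjusted p = 4.17e-05, at a step where 17.2% of all probe sets passed).

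At 7 h the rest of the endosperm exceeded the cotyledons by 0.63 (adjusted p = 0.022, 32.6% of all probe sets passing), a call that held in 4 of 8 fits without 1 array, with 0.53 (adjusted p = 0.103) without cotyledon replicate 3. At 13 h the difference was -0.03 (95% interval -0.48 to 0.41). The cotyledon rise from 3 h to 13 h exceeded the radicle change over the same time by at least 1.30 ± 0.32 (adjusted p = 0.00197, 14% of all probe sets passing). At 13 h the micropylar endosperm exceeded the rest of the endosperm by 0.86 (adjusted p = 0.00387), or by 0.34 without the 2 arrays (adjusted p = 0.568).

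**Figure D3:**
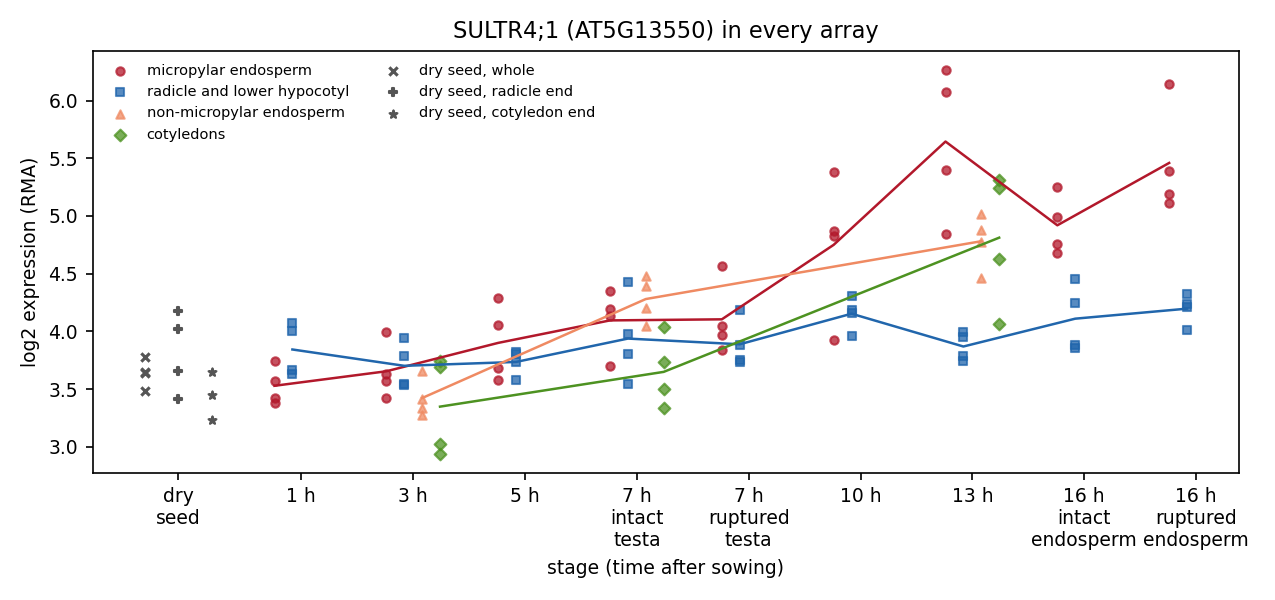
SULTR4;1 log2 expression (vertical axis) in each array by stage (horizontal axis), with 1 symbol per tissue and lines through the group means. Both endosperm parts and the cotyledons reach group means of 4.78 to 5.64 at 13 h, while the radicle groups stay between 3.70 and 4.20.

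SULTR3;5, the vascular partner transporter, had the narrowest range of the 3. Its group means ran from 4.18 in radicle with ruptured testa to 5.18 in micropylar endosperm at 3 h, a range of 1.01 that was larger than that of 40.3% of all probe sets, and none was under the brightness limit. Whole dry seeds spread widely, at 5.29, 3.61, 4.34 and 5.49. Over the 9 stages the level varied in micropylar endosperm (moderated F-test, limma, adjusted p = 0.0016), and the radicle did not pass (adjusted p = 0.186), where 67.7% and 67% of all probe sets passed. SULTR4;1 gave adjusted p = 7.48e-18 and 0.313 in the same tests.

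The largest step of this transporter came early. In micropylar endosperm it read 4.20, 4.38, 4.62 and 4.20 at 1 h and 4.80, 5.64, 5.28 and 5.00 at 3 h, without overlap. The rise of 0.83 ± 0.22 passed (limma, adjusted p = 0.00144), a step at which 32.4% of all probe sets passed. The 5 h arrays, at 4.45, 4.68, 4.32 and 4.71, lay below all 3 h arrays, but this fall did not pass (log2 change -0.64, adjusted p = 0.0592).

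At 3 h its level in micropylar endosperm exceeded that in radicle by 0.64 (adjusted p = 0.0185, 28.3% of all probe sets passing), where the radicle arrays read 4.41, 4.39, 4.78 and 4.57 and did not overlap. With 1 array left out at a time this difference passed in 6 of 8 fits, and its adjusted p was largest, 0.117, without micropylar endosperm replicate 2. The rest of the endosperm at 3 h read 4.38, 5.12, 4.76 and 4.67, overlapping the micropylar endosperm. The difference between these 2 endosperm parts, 0.30 to 0.58 over 8 such fits, passed in 0 of them. The difference between micropylar endosperm and radicle in the step from 1 h to 3 h, 0.66 ± 0.31, did not pass (adjusted p = 0.173). At 7 h with ruptured testa the micropylar endosperm read 4.82, 4.47, 4.45 and 5.27 and the radicle 4.31, 3.83, 4.26 and 4.31, a difference of 0.58 without overlap (adjusted p = 0.0396, 25.7% of all probe sets passing). That difference passed in 4 of 8 such fits, and without micropylar endosperm replicate 4 it was 0.41 (adjusted p = 0.232). From the 3 h high, micropylar endosperm fell to 4.52, 4.60, 4.53 and 4.31 at 13 h (log2 change -0.69, adjusted p = 0.00705, or -0.62 and 0.068 without replicates 3 and 4 of 13 h, and -0.54 and 0.0593 without replicate 2 of 3 h). With intact endosperm at 16 h the arrays read 4.91, 4.70, 5.17 and 5.19, above all 1 h arrays (0.64 from 1 h, adjusted p = 0.0118, 43.8% of all probe sets passing). At endosperm rupture its changes were 0.05 (95% interval -0.39 to 0.48) in micropylar endosperm and 0.03 (-0.41 to 0.46) in radicle.

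**Figure D4:**
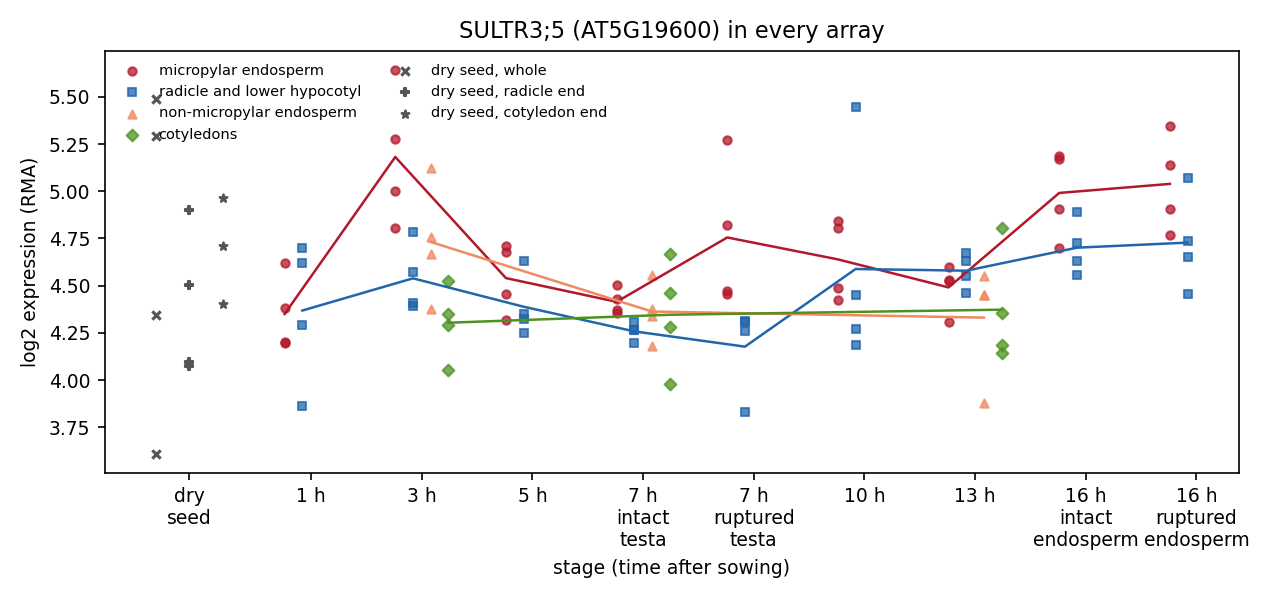
SULTR3;5 log2 expression (vertical axis) in each array by stage (horizontal axis), with 1 symbol per tissue and lines through the group means. Micropylar endosperm reaches 4.80 to 5.64 at 3 h, and the rest of the endosperm 4.38 to 5.12 at that time. At 7 h with ruptured testa micropylar endosperm (4.45 to 5.27) lies above radicle (3.83 to 4.31).

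Averaged over the 9 stages, SULTR4;1 and SULTR3;5 both stood higher in micropylar endosperm, exceeding the radicle by 0.51 ± 0.07 (limma, adjusted p = 3.95e-09) and 0.23 ± 0.07 (adjusted p = 0.00396). In this comparison 65.8% of all probe sets passed. SULTR1;2, averaged over the 7 stages up to 13 h to leave out the step it was chosen for, was higher by 0.27 ± 0.10 (adjusted p = 0.0231, 59.8% of all probe sets passing), which became 0.05 without the 2 arrays at 13 h (adjusted p = 0.491). Averaged over 3 shared times, 0 of 3 passed between micropylar endosperm and the rest of the endosperm, between radicle and cotyledons, and between the rest of the endosperm and cotyledons (limma), where 13.6%, 36.8% and 44.7% of all probe sets passed. An unadjusted p under 0.05 was found for 2, 0 and 0 of the 3.

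In dry seeds the 3 transcripts read near their levels of early imbibition. SULTR1;2 had means of 4.15, 4.03 and 3.94 in whole seeds, the radicle part and the cotyledon part, SULTR4;1 3.63, 3.81 and 3.44, and SULTR3;5 4.68, 4.39 and 4.69. The SULTR4;1 mean of 3.44 was under the brightness limit. Between the parts 0 of 3 passed by limma, and 0 had an unadjusted p under 0.05 (9.64% of all probe sets passed).

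The profiles of the 3 transcripts over the 27 group means were only partly alike. Pearson's r was 0.69 between SULTR1;2 and SULTR4;1, 0.44 between SULTR1;2 and SULTR3;5, and 0.21 between SULTR4;1 and SULTR3;5, as descriptions over groups that share tissues and stages. Without micropylar endosperm at 13 h and both ruptured 16 h groups, which include the step the importer was chosen for, these values were 0.53, 0.35 and 0.06. Of all other probe sets, AT1G44318 and AT3G13650 had profiles most like that of the root importer, with r = 0.97 and 0.94. Over the 24 groups that leave out those 3, the values were 0.76 and 0.81, but they rest largely on dim levels. In these groups AT1G44318 stood above the brightness limit only in intact 16 h micropylar endosperm (4.03). AT3G13650 did so only in micropylar endosperm at 10 h (3.90) and in intact 16 h micropylar endosperm (3.75) and radicle (3.71). In the 13 h micropylar endosperm AT1G44318 read 4.36, 4.90, 3.75 and 4.03 and AT3G13650 4.02, 3.53, 3.63 and 3.75, so neither was highest in replicates 3 and 4.

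Another 4 sulfate transporters of the family were measured. SULTR3;3, a plastid sulfate transporter in Arabidopsis, was high in the radicle late in germination, with means of 4.98 at 10 h, 5.00 at 13 h and 4.90 in intact seeds at 16 h. Means were similar in the dry radicle part (4.87) and in radicle at 1 h (4.79), and lay between 3.86 and 4.18 from 3 h to 7 h. In radicle SULTR3;3 rose from 7 h with ruptured testa to 10 h by 0.80 ± 0.19 (limma, adjusted p = 0.00329). With the endosperm ruptured it fell to 4.00, from 4.55 to 5.19 in the intact radicle arrays to 3.88 to 4.09 in the ruptured ones, a change of -0.91 ± 0.19 (adjusted p = 0.000375) at the step where the root importer was higher in radicle. In micropylar endosperm it stood at 3.87 intact and 3.63 ruptured, and over the 9 stages it was lower there than in radicle by a log2 difference of -0.59 ± 0.06 (adjusted p = 6.04e-14).

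SULTR2;2, a low-affinity transporter of vascular tissue in Arabidopsis, was highest in cotyledons at 3 h (mean 4.69) and fell there to 3.72 at 13 h, a change of -0.97 ± 0.17 (limma, adjusted p = 6.13e-06), over the interval in which the vacuolar exporter rose in the same tissue. SULTR1;3 and SULTR3;2 were under the brightness limit in 25 and 27 of the 27 groups. The molybdate transporters MOT1 and MOT2, relatives of the family, ranged over 0.90 and 0.76 log2 units.

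Genes of sulfur metabolism were read at the rupture steps beside the transporters. Of 39 measured genes in 7 lists, which include the other transporters, 2 rose and 0 fell at endosperm rupture in micropylar endosperm, a share near the 4.3% of all probe sets. These were SERAT2;1, a serine acetyltransferase of cysteine synthesis (1.01 ± 0.20, limma, adjusted p = 0.000159), and GSH1, the first enzyme of glutathione synthesis (0.46 ± 0.14, adjusted p = 0.0391, lost in 6 of 8 fits without 1 array). In radicle, where 5.44% of all probe sets passed, 2 rose, the ATP sulfurylase APS3 (0.49, adjusted p = 0.0205, lost in 4 of 8 such fits) and the APS kinase APK2 (at least 0.45, adjusted p = 0.0482, lost in 6 of 8), and 1 fell, the plastid transporter described above. With only the arrays compared in the fit, SERAT2;1, GSH1, APS3 and APK2 did not pass (adjusted p = 0.243, 0.193, 0.203 and 0.175), and APK2 did not pass without the 2 arrays at 13 h (adjusted p = 0.0524). The median change of the 39 was 0.05 in micropylar endosperm and 0.07 in radicle, against -0.02 and -0.01 over all probe sets.

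Genes that rise under sulfur shortage in Arabidopsis were read at the same steps. Of 7 measured (SDI1, SDI2, LSU2, LSU4, BGLU28, SHM7 and GGCT2;1), 0 passed at endosperm rupture in either tissue by limma, and 0 had an unadjusted p under 0.05. Of all probe sets 4.3% passed in micropylar endosperm and 5.44% in radicle, so 0 of 7 is near the background. At testa rupture 0 of the 39 sulfur genes passed in radicle (6 had an unadjusted p under 0.05, and 1.71% of all probe sets passed). In micropylar endosperm, where 6.33% of all probe sets passed, 2 of 39 fell, SERAT2;2 (-0.61) and the methionine-degrading enzyme MGL (-0.96, adjusted p = 0.000463).

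More sulfur genes passed over longer intervals, as did more of all probe sets. From 1 h to 7 h with intact testa, 7 of 39 rose and 13 fell in micropylar endosperm, and 7 rose and 10 fell in radicle, where 38.2% and 39.5% of all probe sets passed. MGL fell in both (-2.69 ± 0.20 and -1.47 ± 0.20), as did SIR (-0.92 and -0.81) and OASC (-0.86 and -1.25), whereas CGS1, the first step of methionine synthesis, rose (1.16 and 1.00). Between the ruptures 3 rose and 5 fell in micropylar endosperm and 4 rose and 2 fell in radicle, where 15.9% and 11.9% of all probe sets passed. CYSC1, which detoxifies cyanide in cysteine metabolism, rose in both (0.89 and 1.50).

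From 3 h to 13 h, while the vacuolar exporter rose in both tissues, 9 of 39 sulfur genes rose and 8 fell in the rest of the endosperm and 4 rose and 5 fell in cotyledons, shares near the 39.3% and 25.4% of all probe sets that passed. The ATP sulfurylase APS1 rose in the rest of the endosperm (1.77 ± 0.28, adjusted p = 1.1e-07) as did CGS1 (1.48 ± 0.17) and GSH2 (1.06 ± 0.10), while SERAT2;2 and MGL fell (-2.17 ± 0.15 and -2.36 ± 0.20). In cotyledons CGS1 (1.19) and GSH2 (0.75) rose, and SERAT2;1 (-1.13), SERAT2;2 (-0.98) and MGL (-0.84) fell. Averaged over 9 stages, 10 of 39 were higher and 16 lower in micropylar endosperm than in radicle, a share near the 65.8% of all probe sets, and APS2 had the lowest difference (-1.69 ± 0.11, adjusted p = 1.17e-24).

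**Figure D5:**
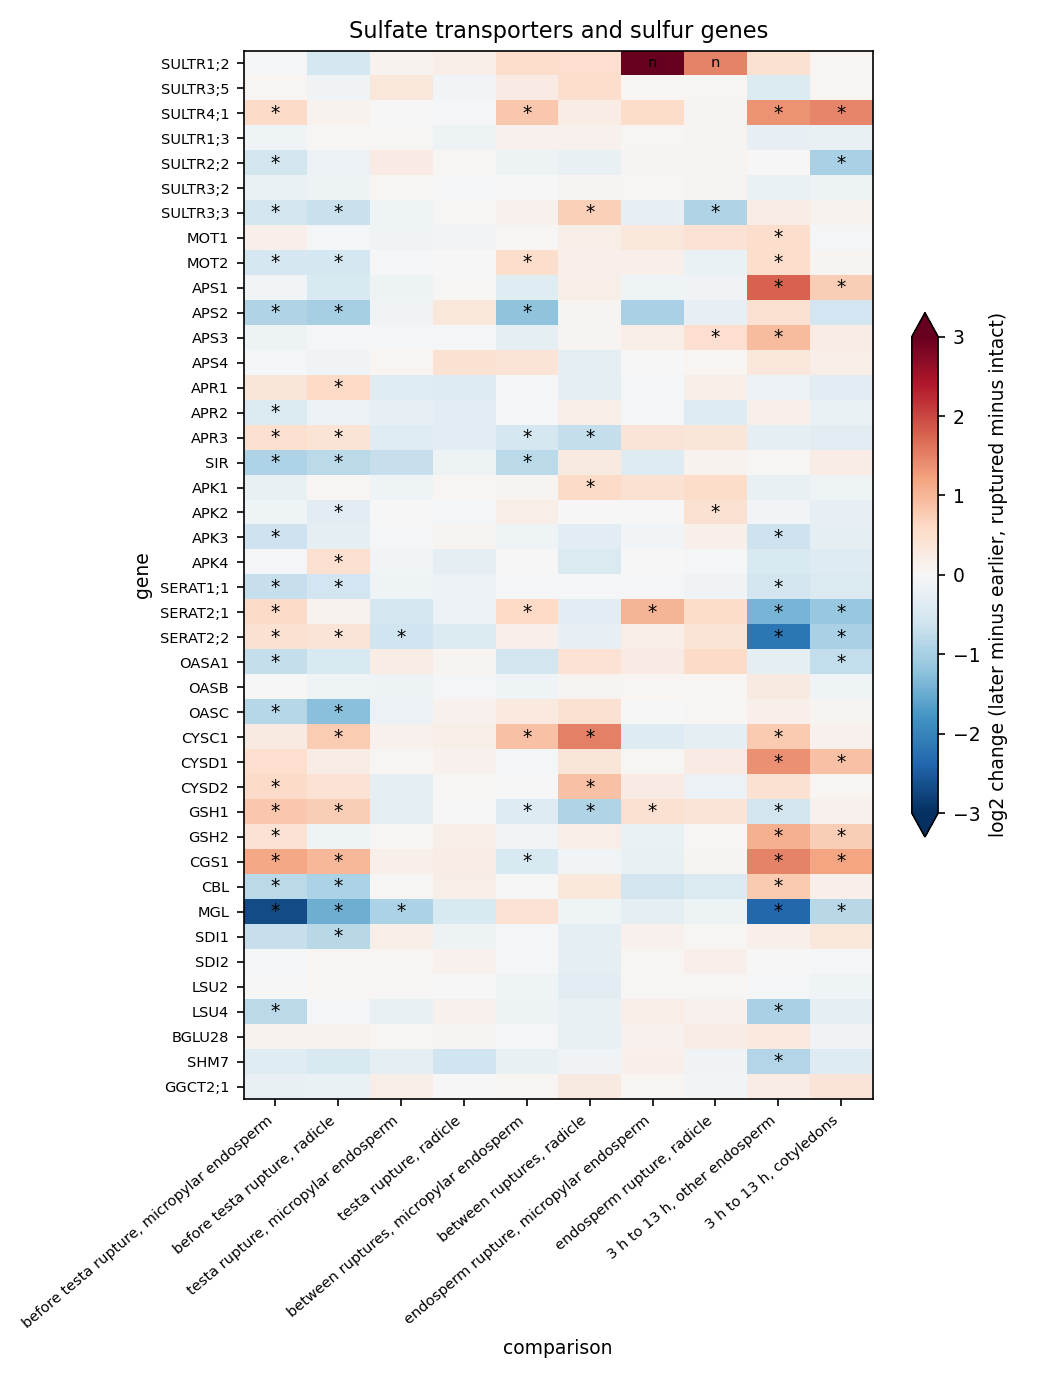
Log2 changes (colour, scale from -3 to 3 with larger values at the end colours) of the measured sulfate transporters, molybdate transporters and sulfur genes (rows) in 10 comparisons (columns), where an asterisk marks an adjusted p under 0.05 in limma and n marks the step that the root importer was chosen for, which was not tested. Asterisks are sparse in both endosperm rupture columns and dense before testa rupture and from 3 h to 13 h.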

How the data were processed

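Arrays were of 1 colour. The deposited log2 expression values came from RMA, run by the authors with affy, per the submitters' processing notes, and versions are not given in the sources used here. RMA gives every array the same distribution of probe intensities before they are summarised, and shrinks differences among dim probe sets. A change is therefore read against the rest of the table. The number of arrays limits the precision.

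Groups came from the sample labels. These do not call the replicates separate seed cultures, so the spread behind the p-values may be technical. Every comparison was a contrast of group means in a single limma fit (limma 3.58.1 in R 4.3.3) with 80 residual plus 6.04 prior degrees of freedom, tested on simulated data. Benjamini-Hochberg adjustment ran over the 13895 probe sets of each comparison, with a threshold of 0.05. Errors after a change are standard errors, and after a level SDs.

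The listed transporters, gene lists and markers were chosen with earlier results of these data known. Besides the listed transporters and their relatives, up to 4 passing genes of each list, those of largest change, were named per comparison. Likeness was Pearson's r over 27 group means. No table pairing loci with names or sequences was used here. Same-numbered replicates did not deviate together (r from -0.30 to 0.36 over 13 comparisons), so the numbers were not taken as pairs.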

Additional observations from a re-analysis of the deposited data

Results flagged for a closer look

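Of 78 sets of 4 replicates tested over the 3 transporters, 3 held 1 sample far from the others, and chance alone flags about 1 in 20 such sets. In micropylar endosperm at 10 h, replicate 1 read 5.02 for SULTR1;2 against 4.19 to 4.20 in the other 3. In radicle with ruptured testa at 7 h, replicate 2 read 3.83 for SULTR3;5 against 4.26 to 4.31. In the rest of the endosperm at 13 h, replicate 3 read 3.88 for SULTR3;5 against 4.45 to 4.55. The 13 h micropylar endosperm, in which SULTR1;2 was high in 2 of 4 replicates, is not among these, since the comparison looks for a single sample.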

How the results depend on the processing

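Each alternative changed 1 choice, and 24 counts of passing transporters (members of the listed 3) were recomputed, or 23 where 2 arrays at 13 h were left out and 1 where the comparison of micropylar endosperm and radicle used the 7 stages to 13 h. Quantile normalization and the replicate block, which takes the replicate number as a term, left all 24 within 1.5 times their value. With the block the rise of SULTR4;1 between ruptures in micropylar endosperm was 0.81 as before. The count for micropylar endosperm against the rest of the endosperm, 0, became 1 with an intensity trend and robust moderation, 1 with dim probe sets left out, and 2 with array weights, which also raised the passing stage steps from 4 to 7. With only the arrays compared in the fit, counts became 1 before testa rupture in radicle and for its difference between tissues, 2 between ruptures in micropylar endosperm and 1 in radicle, 2 from 3 h to 13 h in the rest of the endosperm, 1 for the rest of the endosperm against cotyledons, 1 for the stage steps and 1 for the radicle stage profile. Leaving out replicates 3 and 4 of micropylar endosperm at 13 h, chosen after seeing the data, gave 1 before testa rupture in radicle, 2 and 1 between ruptures in micropylar endosperm and radicle, 2 from 3 h to 13 h in the rest of the endosperm, 1 for the rest of the endosperm against cotyledons and 1 stage step, and reversed the SULTR1;2 steps around 13 h (-0.11 and 0.16). The added SULTR1;2 calls have the same changes with a smaller standard error, since that group's spread left the fit. Counts between ruptures and of stage steps include SULTR1;2 in comparisons with the intact 16 h arrays, which entered its choice. Leaving out 1 array at a time gave 0 to 1 before testa rupture in micropylar endosperm, 0 to 2 against the rest of the endosperm and 1 to 5 stage steps.

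Over all probe sets, array weights moved the calls at testa rupture from 880 to 2328 in micropylar endosperm, from 237 to 637 in radicle and from 60 to 191 for their difference, at endosperm rupture in radicle from 756 to 1403, between ruptures from 2212 to 3414 in micropylar endosperm and from 1022 to 1571 for the difference, and in the first hour in radicle from 408 to 122. With only the arrays compared, calls at endosperm rupture were 30 instead of 598 in micropylar endosperm, 266 instead of 756 in radicle and 41 instead of 370 for the difference, between ruptures in micropylar endosperm 1454, from 3 h to 13 h in cotyledons 1793 instead of 3529, between dry parts 623 instead of 1340, and in the first hour in radicle 20. The cause of these shifts was not tested, beyond the fewer degrees of freedom that fewer arrays leave. The dim SULTR4;1 levels at 1 h and 3 h limit its early changes to lower bounds.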

Other observations

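In dry seeds 2 of the 39 sulfur genes differed between the radicle part and the cotyledon part, where 9.64% of all probe sets passed. The ATP sulfurylase APS2 was higher in the radicle part by 1.61 ± 0.36 log2 units (limma, adjusted p = 0.000807), and the cysteine synthase OASC by 1.13 ± 0.19 (adjusted p = 3.14e-06). APS2 was also higher in radicle than in cotyledons during imbibition (2.30 ± 0.19, adjusted p = 3.87e-18). MGL was higher in micropylar endosperm at 1 h than in the dry radicle part by 1.38 ± 0.20 (limma, adjusted p = 3.9e-07). That dry part holds the radicle as well, so time and tissue cannot be told apart in this difference. By 7 h with intact testa MGL in micropylar endosperm had fallen below its 1 h level by the amount given above.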
